A study of Mus musculus with 9 samples.

Results

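Heme breakdown and iron handling were examined through 10 mouse genes, chosen by symbol from the 56691 genes of the deposited table. They are Hmox1 and Blvrb for heme breakdown, Fth1 and Ftl1 for iron storage, Ncoa4 for ferritin turnover, Tfrc, Slc11a1 and Slc11a2 for iron import, Slc40a1 for iron export and Fech for heme synthesis. Each symbol matched 1 Ensembl gene. The genes were measured by poly(A) RNA sequencing in RAW264.7 cells, a transformed mouse macrophage-like line, which can be driven towards osteoclasts by the cytokine RANKL. There were 3 groups of 3 libraries, all harvested after 3 days of culture. Control cells received neither agent. RANKL cells were given RANKL, for which the study's methods state 50 ng/mL. RANKL + UD cells were given RANKL together with uridine (UD), a pyrimidine nucleoside, at a dose that the sources used here do not give for these libraries. All libraries come from a single cell line, and the p-values measure the spread between replicate samples of that line.

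Total counts ranged from 15951800 to 19746862 per library. The scaling factors for composition (TMM) were 0.959 to 0.963 in the RANKL libraries and 1.01 to 1.03 in the others, so a comparison with the RANKL group depends in part on this step. Osteoclast markers summed to 57.6 to 60.3 FPKM (reads scaled by exonic length and by the library total) in control, 2715 to 2920 in RANKL and 1724 to 1761 in RANKL + UD. A large part of the RANKL and RANKL + UD sums was 1 gene, Ctsk, with means of 1491 and 869 FPKM. Macrophage markers summed to 9502 to 10105, 2651 to 2900 and 2300 to 2438 FPKM in the same order. A large part of each macrophage sum was 1 gene, Lyz2, with means of 8000, 1431 and 1285 FPKM. With RANKL, 7 of the 9 tested macrophage markers were lower than in control and 2, Cd68 and Spi1, were higher. Over all tested genes, 30.2% were lower and 27.3% higher. The 2 marker lists held 10 genes each. In bulk RNA, fewer cells of a type and less RNA per cell cannot be told apart, and the part of cell composition in the results that follow was not tested. The 4 adult hemoglobin genes Hba-a1, Hba-a2, Hbb-bs and Hbb-bt had 0 counts in every library, and 9 erythroid markers together reached at most 0.41 FPKM. Fibroblast and lymphocyte markers summed to at most 0.24 and 0.30 FPKM.

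Heme is an iron-bearing ring used by respiratory enzymes, cytochromes and hemoglobin. Macrophages take it from aged red cells, cleave it with heme oxygenase and either store the released iron in ferritin or pass it out through ferroportin. Osteoclasts are rich in mitochondria, which consume iron for heme and iron-sulfur clusters, and transferrin receptor is the route by which most cells take iron from plasma. Several of these mRNAs carry an iron-responsive element, a short hairpin bound by the iron regulatory proteins when iron is scarce. Binding in the 5′ untranslated region blocks translation, whereas binding in the 3′ untranslated region protects the mRNA from decay. The mRNA level of a gene with a 5′ element is therefore not a measure of its protein, and protein was not measured here.

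The hairpins are shown because they sort the members with a match by whether the element acts on translation or on mRNA stability. The mouse transcripts of GENCODE M21 (GRCm38) were searched on the sense strand for a bulged C, a 5-base upper stem, the 6-base loop CAGTGN and a matching 5-base stem, with at least 4 of 6 pairs in the lower stem. The loop is in capitals and each sequence is 29 bases, 5′ to 3′.
Fth1, 5′ untranslated region, chr19:9982732-9982760, plus strand: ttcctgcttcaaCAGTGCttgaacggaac
Ftl1, 5′ untranslated region, chr7:45459779-45459807, minus strand: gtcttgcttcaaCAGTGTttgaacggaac
Slc40a1, 5′ untranslated region, chr1:45925465-45925493, minus strand: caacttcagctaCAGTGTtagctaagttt
Tfrc, 3′ untranslated region, chr16:32631219-32631247, plus strand: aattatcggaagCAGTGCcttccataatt
Tfrc, 3′ untranslated region, chr16:32631598-32631626, plus strand: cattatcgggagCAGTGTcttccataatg
Tfrc, 3′ untranslated region, chr16:32631663-32631691, plus strand: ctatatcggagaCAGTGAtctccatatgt
Tfrc, 3′ untranslated region, chr16:32631710-32631738, plus strand: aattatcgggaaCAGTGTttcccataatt

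A match was found in 4 of the 10 members (40%), against 47 of 21877 protein-coding genes (0.215%) under the same search. The members were chosen as heme and iron genes and the pattern is an iron-responsive element, so this contrast is not a test. The Fth1 and Ftl1 hairpins were identical at 26 of 29 positions. The first and second Tfrc hairpins were identical at 25 of 29 positions, and each lay in a single exon. In Fth1, Ftl1 and Slc40a1 the match began 87, 78 and 90 bases from the 5′ end of the transcript, ahead of the coding part. A match is a description of the letters, and no site was tested for binding. A hairpin that departs from the searched pattern would be missed, so a member without a match may still carry an element.

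**Figure D1:**
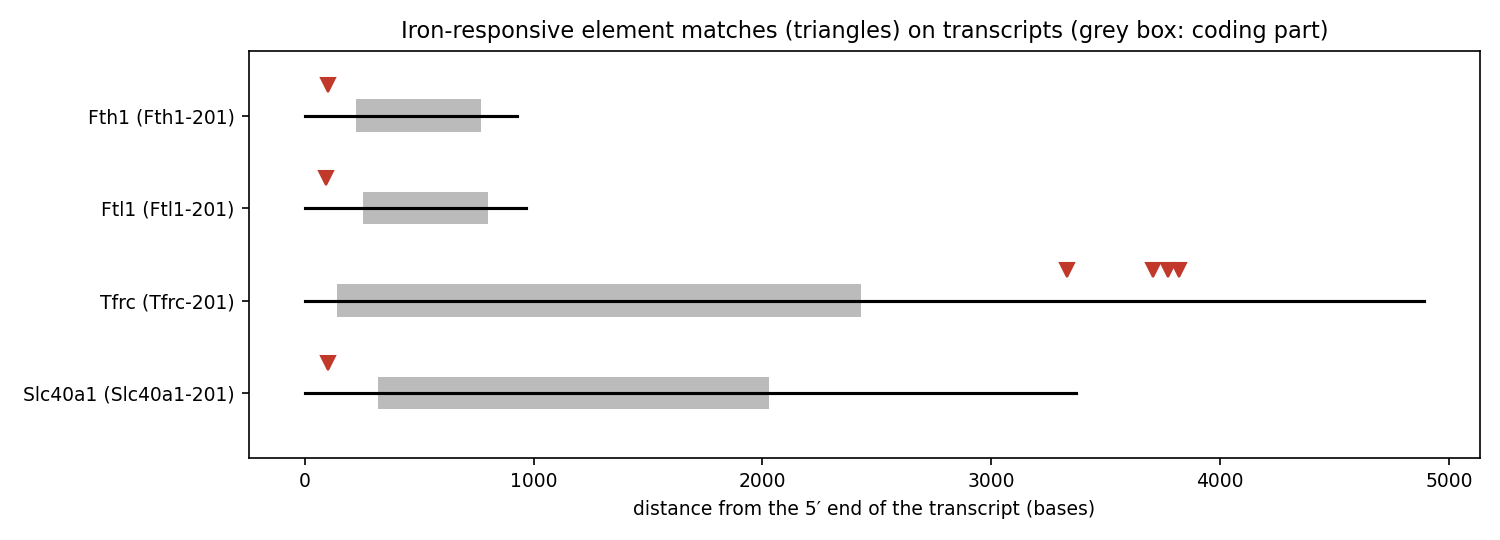
Positions of the hairpin matches (triangles) on 1 GENCODE M21 transcript each of Fth1, Ftl1, Tfrc and Slc40a1, drawn to scale in bases from the 5′ end, with the coding part as a grey box. The single matches of Fth1, Ftl1 and Slc40a1 lie before the coding part, and the 4 matches of Tfrc lie between bases 3315 and 3834, after a coding part that ends at base 2429.

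After RANKL alone, the mRNA of transferrin receptor, Tfrc, rose strongly, Fth1 and the macrophage transporter Slc11a1 fell, and Hmox1 was not called. Of the 9 members that passed the expression filter (3 or more libraries at an FPKM of 1 or above), 5 were higher and 3 lower than in control at an adjusted p under 0.05 (edgeR's quasi-likelihood test, adjusted over all 11995 tested genes). The shares over all tested genes were 27.3% higher and 30.2% lower. Beyond 1.5-fold, 3 members were higher and 1 lower, against 10.8% and 14.1% of all tested genes. The libraries of 6 members did not overlap between the groups, which was also true of 61.7% of all tested genes. The median log2 fold change of the 9 members was 0.13, and that of all tested genes was -0.03.

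Adding UD to RANKL lowered Hmox1, Fth1 and Slc11a1, whichever scaling was used. Of 9 members, 7 were lower and 0 higher than with RANKL alone in edgeR's quasi-likelihood test, against 20.2% and 18.6% of all tested genes. At an unadjusted p under 0.05, 1 member, Ncoa4, was higher. DESeq2 called 0 higher and 8 lower, and limma on log2(FPKM + 1) called 1 higher and 3 lower. Beyond 1.5-fold, only Hmox1 was lower and 0 members were higher, against 5.49% and 4.38%. The libraries of 7 members did not overlap, as for 51.7% of all tested genes. The median was -0.20 for the members and 0.005 for all tested genes. The number of calls depended on the scaling: with total counts alone, 3 members were called lower and 1, Ncoa4, was called higher, while no member changed the sign of its log2 fold change. With total counts, 3348 of all tested genes were higher and 1709 lower, compared with 2233 and 2418 under TMM. Leaving out RANKL + UD replicate 1 gave 1 member called higher, again Ncoa4.

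Against control, RANKL + UD cells had 4 members higher and 4 lower, where 26.7% and 27.3% of all tested genes were called. Beyond 1.5-fold, 2 were higher and 4 lower, against 9.3% and 12.8%. The libraries of 8 members did not overlap, as for 59.9% of all tested genes. This comparison shares its libraries with the other two, so the 3 sets of values are given side by side and were not treated as independent.

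**Figure D2:**
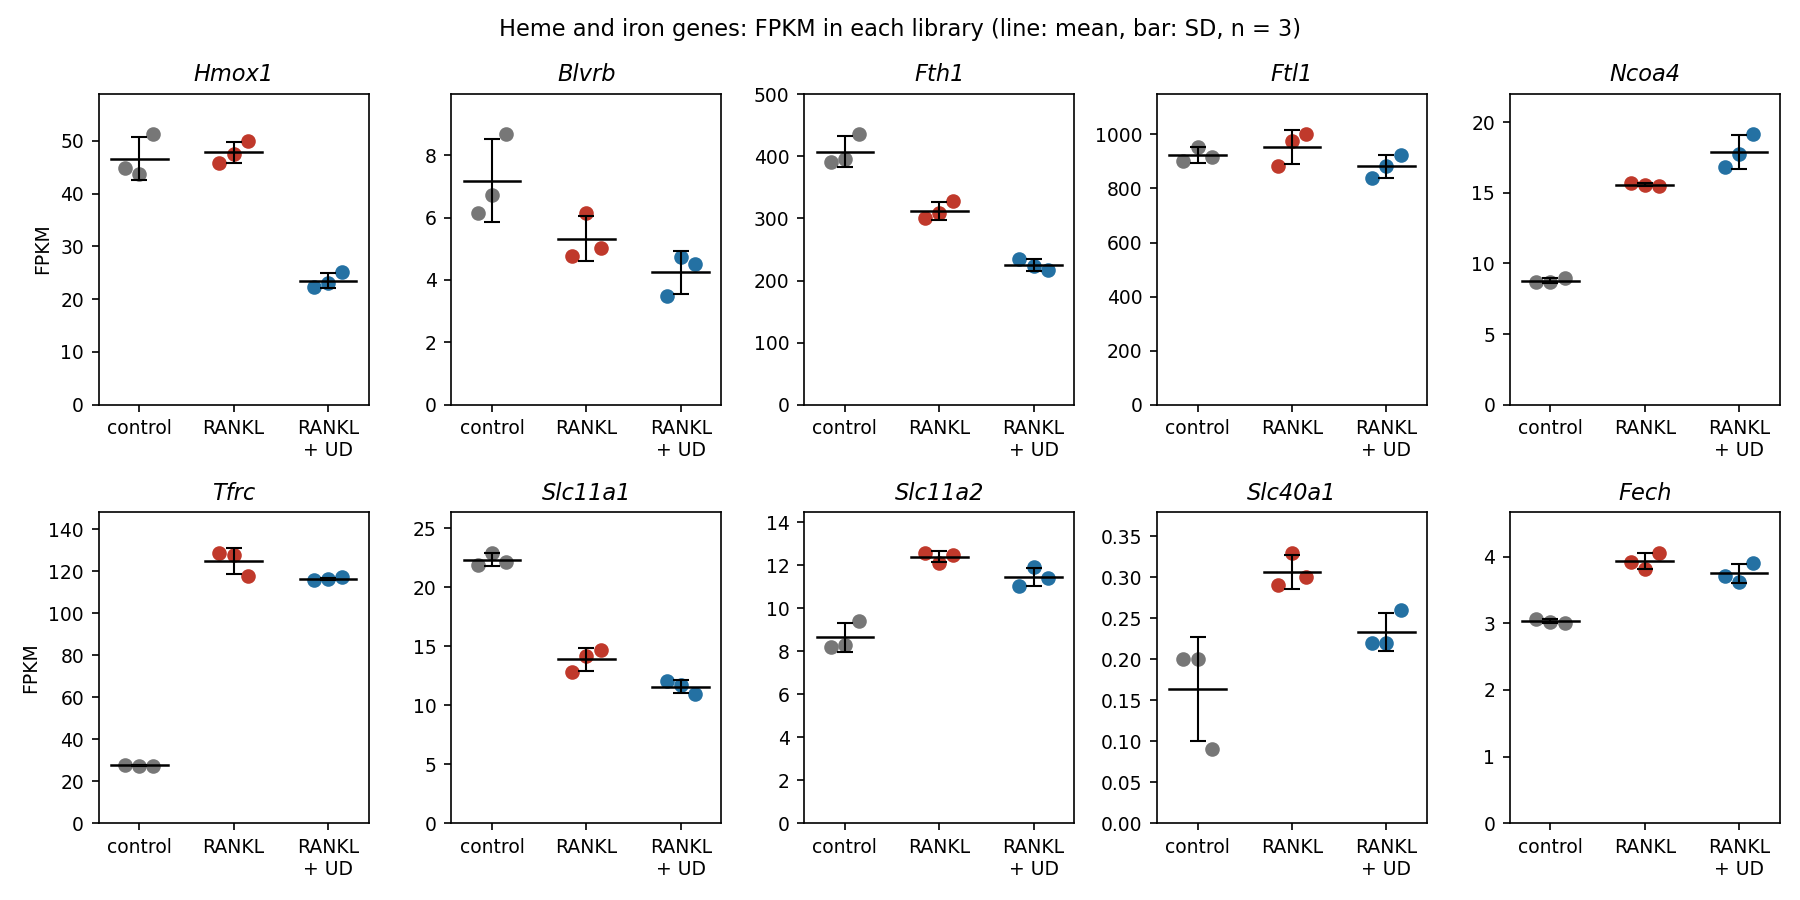
FPKM (vertical axis, linear, from 0) of the 10 genes in each of the 9 libraries, with the group mean as a line and the SD as a bar (n = 3). Tfrc sits near 27.6 FPKM in control and above 115 in every RANKL and RANKL + UD library, whereas Hmox1 is lower in the RANKL + UD libraries only.

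Hmox1 (ENSMUSG00000005413, chr8:75093621-75100589, GRCm38) encodes the inducible heme oxygenase, which opens the heme ring and releases iron, carbon monoxide and biliverdin. It stood at 44.8, 43.8 and 51.3 FPKM in control and at 45.9, 47.6 and 49.99 FPKM with RANKL. With RANKL + UD the libraries held 22.3, 23.1 and 25.1 FPKM. The control and RANKL libraries overlapped, and every RANKL + UD library lay below all 6 others. The RANKL against control log2 fold change was 0.12 ± 0.067 (SE, edgeR adjusted p = 0.118), and without control replicate 3 it was called at 0.20 (edgeR adjusted p = 0.0119). Set against control, RANKL + UD cells held Hmox1 1.98-fold lower, a log2 fold change of -0.99 ± 0.070 (edgeR adjusted p = 1.19e-10). Against RANKL alone the difference ranged from -1.16 to -0.995 on the log2 scale over the 16 alternatives.

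The constitutive heme oxygenase Hmox2, named here after its values were seen, did not pass the test in any of the comparisons. Its mean level was 29.5 ± 1.38 FPKM in control, 30.4 ± 0.297 under RANKL and 30.5 ± 0.625 under RANKL + UD (SD, n = 3). Hmox1 was thus above Hmox2 in the control and RANKL means and below it in the RANKL + UD mean.

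Blvrb (ENSMUSG00000040466, chr7:27447978-27466144) encodes biliverdin reductase B, which reduces biliverdin and also acts as a flavin reductase. Control libraries held 6.15, 6.72 and 8.68 FPKM, RANKL libraries 4.78, 6.16 and 5.04, and RANKL + UD libraries 3.47, 4.74 and 4.52. Control and RANKL overlapped, and the highest RANKL + UD library lay just under the lowest RANKL library. Blvrb was lower in RANKL than in control by -0.34 ± 0.138 (log2, SE, edgeR adjusted p = 0.0405), a call that was lost under 8 of 16 alternatives. Leaving out control replicate 3 gave -0.19 (edgeR adjusted p = 0.252), and leaving out RANKL replicate 1 or RANKL replicate 3 gave -0.27 (edgeR adjusted p = 0.148) or -0.30 (edgeR adjusted p = 0.12). UD changed it further by -0.42 ± 0.144 (edgeR adjusted p = 0.0255), lost under 6 of 16 alternatives, among them the fits without RANKL replicate 2 (-0.30, edgeR adjusted p = 0.149) and without RANKL + UD replicate 1 (-0.29, edgeR adjusted p = 0.154). The difference between RANKL + UD and control was -0.76 ± 0.142 (edgeR adjusted p = 0.000118), and it was called under every one of the 16 alternatives. Blvra, the main biliverdin reductase of adult tissue, had a mean of 46.9 FPKM in control, 45.1 under RANKL and 32.5 under RANKL + UD.

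The ferritin chains moved apart. Fth1 (ENSMUSG00000024661, chr19:9980598-9985098) encodes the heavy chain, whose ferroxidase site oxidizes iron for storage. Its libraries held 391, 396 and 436 FPKM in control, 300, 308 and 329 FPKM with RANKL, and 235, 223 and 217 FPKM with RANKL + UD. The groups did not overlap and fell in the order control, RANKL, RANKL + UD. RANKL lowered Fth1 by -0.30 ± 0.052 (log2, SE, edgeR adjusted p = 5.09e-05), and under limma on quantile-normalized values this difference was -0.59 (adjusted p = 2.94e-06). UD lowered it by a further -0.56 ± 0.052 (edgeR adjusted p = 3.64e-08), or -0.34 under the quantile-normalized fit (limma adjusted p = 0.000372). Relative to control, RANKL + UD cells were at -0.86 ± 0.052 (edgeR adjusted p = 9.61e-12).

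Ftl1 (ENSMUSG00000050708, chr7:45457944-45459884) encodes the light chain, which lacks that site and promotes mineral formation inside the ferritin shell. The values were 901, 955 and 915 FPKM in control, 882, 977 and 1001 FPKM with RANKL, and 839, 884 and 925 FPKM with RANKL + UD. All 3 groups overlapped. The call of 0.13 ± 0.051 for RANKL against control (log2, SE, edgeR adjusted p = 0.0304) was lost without control replicate 1 (0.12, edgeR adjusted p = 0.0936), without RANKL replicate 2 (0.12, edgeR adjusted p = 0.106), without RANKL replicate 3 (0.10, edgeR adjusted p = 0.117) and with total counts (0.05, edgeR adjusted p = 0.464), and it turned to -0.19 under quantile normalization (limma adjusted p = 0.0123). The difference of -0.20 ± 0.051 between RANKL + UD and RANKL (edgeR adjusted p = 0.00398) was -0.11 with total counts (edgeR adjusted p = 0.0904) and 0.0084 under quantile normalization (limma adjusted p = 0.92). The sign of both Ftl1 differences thus changed under quantile normalization, where the second was not called, and stayed the same with total counts. Against control, RANKL + UD cells were at -0.06 ± 0.051 (edgeR adjusted p = 0.302), and under quantile normalization Ftl1 was called lower at -0.18 (limma adjusted p = 0.0159).

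The ratio of the heavy to the light chain needs no scaling between libraries. Fth1 FPKM divided by Ftl1 FPKM was 0.434, 0.415 and 0.476 in control, 0.340, 0.316 and 0.328 with RANKL, and 0.280, 0.252 and 0.235 with RANKL + UD. The groups did not overlap. The mean ratio was 0.442 ± 0.0316 in control, 0.328 ± 0.0123 under RANKL and 0.255 ± 0.0227 under RANKL + UD (SD, n = 3). On the log2 scale the ratio differed by -0.43 ± 0.067 between RANKL and control, by -0.36 ± 0.080 between RANKL + UD and RANKL, and by -0.79 ± 0.094 between RANKL + UD and control (SE). Each of these differences had an exact two-sided permutation p of 0.1, the smallest that 3 against 3 libraries allow. The summed ferritin level was 1331 ± 34.4, 1266 ± 75.6 and 1107 ± 33.9 FPKM in the same order. The absolute value of the ratio depends on the exonic lengths of the table, 3469 bases for Fth1 and 1340 bases for Ftl1, which merge all annotated exons. Processed ferritin copies took few reads: the highest, Ftl1-ps1, had at most 147 counts, 0.761% of Ftl1, and the Fth1 copies had at most 7 counts.

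**Figure D3:**
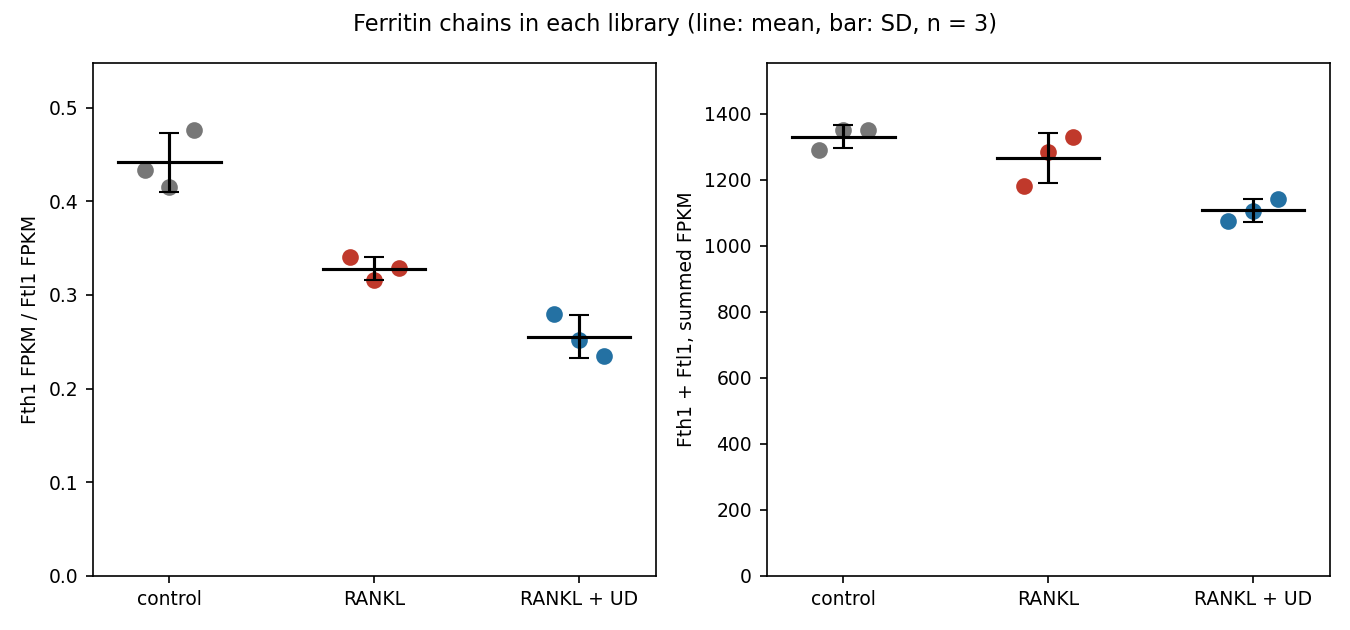
Ratio of Fth1 to Ftl1 FPKM (left) and their summed FPKM (right) in each library, linear axes from 0, with group means as lines and SDs as bars (n = 3). The ratio separates the groups without overlap at means of 0.442, 0.328 and 0.255, whereas the summed level is 1331, 1266 and 1107 FPKM.

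Ncoa4 (ENSMUSG00000056234, chr14:32159865-32179855) encodes the receptor that carries ferritin to the lysosome, where its iron is released. It was at 8.68, 8.66 and 8.97 FPKM in control, 15.7, 15.5 and 15.5 FPKM with RANKL, and 16.8, 17.7 and 19.2 FPKM with RANKL + UD. Every library that received RANKL lay above every control library, and the RANKL + UD libraries lay above the RANKL libraries. Ncoa4 rose 1.88-fold with RANKL (log2 0.91 ± 0.054, SE, edgeR adjusted p = 3.94e-12) and was 2.04-fold above control with RANKL + UD (log2 1.03 ± 0.054, edgeR adjusted p = 6.18e-13). Between RANKL + UD and RANKL the log2 fold change was 0.11 ± 0.052 (edgeR adjusted p = 0.0875), and it passed the threshold with total counts (0.20, edgeR adjusted p = 0.00393) and without RANKL + UD replicate 1 (0.16, edgeR adjusted p = 0.0416). Ncoa4 was thus higher in the RANKL-treated groups, in which its cargo chain Fth1 was lower, than in control.

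Iron import showed the widest range. Tfrc (ENSMUSG00000022797, chr16:32608920-32632794), the transferrin receptor, was at 27.9, 27.5 and 27.4 FPKM in control. With RANKL its libraries held 129, 128 and 118 FPKM, and with RANKL + UD 116, 116 and 117 FPKM. The control libraries lay far below the rest, and RANKL + UD lay just below RANKL. RANKL raised Tfrc 4.80-fold (log2 2.26 ± 0.048, SE, edgeR adjusted p = 2.28e-19), and RANKL + UD cells were 4.22-fold above control (log2 2.08 ± 0.048, edgeR adjusted p = 1.01e-18). UD lowered Tfrc by -0.19 ± 0.046 relative to RANKL (edgeR adjusted p = 0.00258), a call that was lost with total counts (-0.10, edgeR adjusted p = 0.0822), under limma at both pseudocounts and under quantile normalization (limma adjusted p = 0.167). Between RANKL + UD and RANKL, 9 of 9 tested osteoclast markers were called lower, beside 20.2% of all tested genes. Their median log2 fold change was -0.86. Among them, Itgb3 was near the limit of the expression filter, with means of 1.44 FPKM under RANKL and 0.73 under RANKL + UD.

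Slc11a2 (ENSMUSG00000023030, chr15:100387898-100425072) encodes DMT1, which moves iron out of endosomes after transferrin uptake. It was at 8.21, 8.29 and 9.42 FPKM in control, 12.6, 12.1 and 12.5 FPKM with RANKL, and 11.04, 11.9 and 11.4 FPKM with RANKL + UD. The 3 groups did not overlap. Slc11a2 rose 1.53-fold with RANKL (log2 0.61 ± 0.063, SE, edgeR adjusted p = 3.63e-08) and was 1.33-fold above control with RANKL + UD (log2 0.41 ± 0.063, edgeR adjusted p = 1.24e-05). The difference of -0.20 ± 0.062 between RANKL + UD and RANKL (edgeR adjusted p = 0.0128) was lost with total counts (-0.12, edgeR adjusted p = 0.146) and without RANKL + UD replicate 1 (-0.18, edgeR adjusted p = 0.0633).

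Slc11a1 (ENSMUSG00000026177, chr1:74375195-74386062) encodes NRAMP1, a metal transporter of the macrophage phagosome. Control libraries held 21.9, 22.9 and 22.1 FPKM, RANKL libraries 12.8, 14.2 and 14.7 FPKM, and RANKL + UD libraries 12.1, 11.7 and 10.97 FPKM. The order was control, RANKL, RANKL + UD, with no overlap. RANKL lowered Slc11a1 1.51-fold (log2 -0.60 ± 0.065, SE, edgeR adjusted p = 8.75e-08), and UD lowered it by a further -0.35 ± 0.067 (edgeR adjusted p = 0.000324). The RANKL effect lies so close to 1.5-fold that it fell inside it under RLE size factors, in DESeq2, in a fit of only the 6 libraries, without a filter, without control replicate 2 and without RANKL replicate 1. Relative to control, RANKL + UD cells were 1.93-fold lower (log2 -0.94 ± 0.066, edgeR adjusted p = 9.59e-11). The macrophage markers, of which 7 of 9 tested were lower and 2 higher with RANKL, had a median log2 fold change of -1.58. Over all tested genes, 30.2% were lower and 27.3% higher. The 2 import genes Slc11a1 and Slc11a2 moved in opposite directions with RANKL.

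Slc40a1 (ENSMUSG00000025993, chr1:45908068-45926523) encodes ferroportin, the iron exporter of macrophages, and was barely detected. Its counts were 30, 36 and 13 in control, 51, 57 and 52 under RANKL and 39, 32 and 40 under RANKL + UD, which is at most 0.33 FPKM. The RANKL libraries lay above the others. The control and RANKL + UD libraries overlapped in counts, but in FPKM RANKL + UD (0.22 to 0.26) lay above control (0.09 to 0.20). It did not pass the expression filter. Without that filter the log2 fold change was 0.98 ± 0.301 for RANKL against control (SE, edgeR adjusted p = 0.00481), -0.48 ± 0.289 for RANKL + UD against RANKL (edgeR adjusted p = 0.325) and 0.51 ± 0.312 for RANKL + UD against control (edgeR adjusted p = 0.264).

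Fech (ENSMUSG00000024588, chr18:64452914-64490251) encodes ferrochelatase, which inserts iron into protoporphyrin in the last step of heme synthesis. It was at 3.06, 3.02 and 3.01 FPKM in control, 3.92, 3.82 and 4.06 FPKM with RANKL, and 3.71, 3.62 and 3.91 FPKM with RANKL + UD. Control lay below both other groups, which overlapped. RANKL raised Fech 1.38-fold (log2 0.47 ± 0.065, SE, edgeR adjusted p = 2.9e-06), or by 0.29 on the log2(FPKM + 1) scale (limma adjusted p = 0.00148), and RANKL + UD cells were 1.24-fold above control (log2 0.31 ± 0.065, edgeR adjusted p = 0.000423). The difference between RANKL + UD and RANKL was -0.16 ± 0.064 (edgeR adjusted p = 0.059), and it was called under RLE size factors (edgeR adjusted p = 0.0413) and in DESeq2 (adjusted p = 0.0487).

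**Figure D4:**
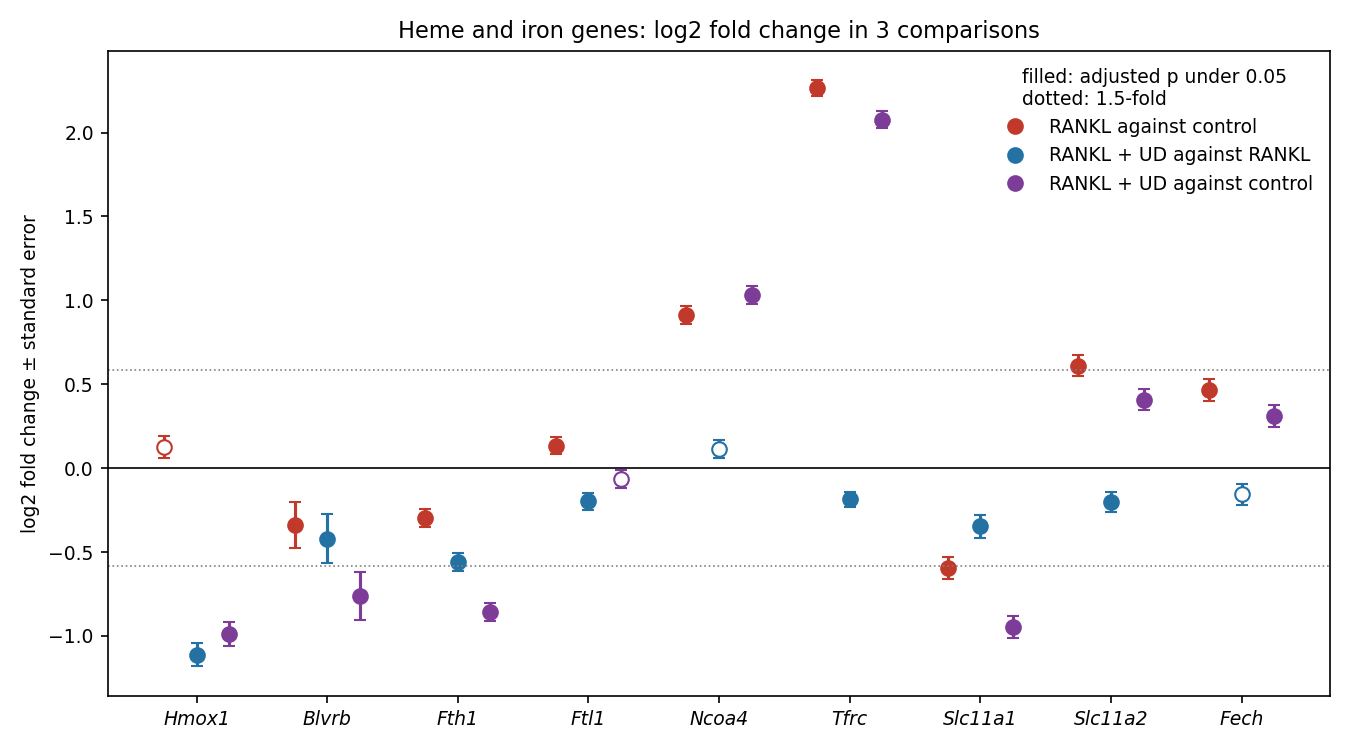
Log2 fold change with its standard error (vertical axis) for the 9 tested genes in the 3 comparisons, filled where the edgeR adjusted p is under 0.05, with dotted lines at 1.5-fold. Tfrc reaches 2.26 with RANKL, and Hmox1 is at -1.11 between RANKL + UD and RANKL while its open symbol for RANKL against control is at 0.12.

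Ftl1 had the highest FPKM of the members in every group, followed by Fth1, at percentiles of 99.8 and 98.7 among tested genes or above. Tfrc moved from the percentile of 85.4 among tested genes in control to 97.3 under RANKL and 97.2 under RANKL + UD. Hmox1 moved from the percentile of 92.2 in control and 92.1 with RANKL to 81.9 with RANKL + UD. Counts of both ferritins together were 0.256% to 0.274% of all counts in control, 0.222% to 0.248% under RANKL and 0.194% to 0.199% under RANKL + UD. Mitochondrially encoded genes took 3.67% to 4.03% of counts in control, 4.46% to 4.71% under RANKL and 4.49% to 4.70% under RANKL + UD.

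The profile of each member over the 9 libraries was compared with that of all 11995 tested genes. These correlations follow the group means and are descriptions. The nearest gene to Hmox1 was Ctsb, a lysosomal cathepsin, with a Pearson r of 0.996 on the log2 scale over 9 libraries, followed by H2-T23 and Bckdha. Fth1 was closest to another cathepsin gene, Ctsf (r = 0.995), then to Pmp22 and Metrnl. The nearest profile to Tfrc was that of Gimap6 (r = 1.00), followed by Scin, which encodes the actin-severing protein scinderin, and Nyap2. Ncoa4 was nearest to Ddb1 (r = 0.998), Slc11a1 to Bhlhe41 (r = 0.995), Slc11a2 to Ddx52 (r = 0.994), Fech to Cct2 (r = 0.992), Blvrb to Srebf2 (r = 0.993) and Ftl1 to Mat2b (r = 0.962). Among the members, Ncoa4 and Tfrc had an r of 0.98, and Fth1 and Slc11a1 an r of 0.94.

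Of 82 other heme and iron genes in 5 lists, 63 passed the filter. With RANKL, 20 were higher, 16 lower and 27 not called, where 27.3% of all tested genes were higher and 30.2% lower. UD relative to RANKL gave 5 higher, 13 lower and 45 not called, where 18.6% of all tested genes were higher and 20.2% lower. When total counts were used without scaling, this became 13 higher and 8 lower, beside 3348 and 1709 of the 11995 tested genes. RANKL + UD against control gave 17 higher, 18 lower and 28 not called, where 26.7% of all tested genes were higher and 27.3% lower. The named genes were the largest calls of each list in each direction.

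Among heme synthesis genes, 2 of 7 were higher and 1 lower with RANKL, beside 27.3% and 30.2% of all tested genes. Uros, the uroporphyrinogen synthase, was at 0.42 ± 0.131 (log2, SE), Alas1, the rate-limiting first enzyme, at 0.28 ± 0.090 and Alad, the second enzyme, at -0.35 ± 0.135. The Alas1 call was lost with total counts and in limma at both pseudocounts. The Alad call was lost in limma on quantile-normalized values (adjusted p = 0.0831). UD relative to RANKL raised Alad by 0.45 ± 0.135, a call kept under all 9 alternatives. Fech, the last enzyme, was at -0.16 in this comparison and was not called. Between RANKL + UD and control only Alas1 of the 7 was called, higher at 0.37 ± 0.090. Over all tested genes, 26.7% were higher and 27.3% lower in that comparison.

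The list of heme transport and other heme breakdown genes had 3 of 10 higher and 4 lower with RANKL. The shares over all tested genes were 27.3% and 30.2%. Pgrmc1, a heme-binding membrane protein, was at 1.00 ± 0.061 (log2, SE), and the heme exporter Flvcr1 was at 0.76 ± 0.066. Hebp1, a heme-binding protein, was at -1.13 ± 0.167, and Slc48a1, which carries heme out of the phagolysosome, was at -0.89 ± 0.087. The means of Hebp1 were 2.54 FPKM in control, 1.09 under RANKL and 0.81 under RANKL + UD. With UD added to RANKL, 4 of 10 were lower and 6 were not called, where 20.2% of all tested genes were lower. Lrp1, the receptor for heme-bound hemopexin, was at -0.73 ± 0.057 and Blvra at -0.56 ± 0.055, both called under all 9 alternatives of scaling, tool and samples, whereas Hebp1 at -0.53 ± 0.188 was called under 4 of 9. Hmox1 and both biliverdin reductase genes, Blvra and Blvrb, were each called lower with UD, Blvrb only under 10 of its 16 alternatives.

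Iron transport and sensing genes split in both directions. With RANKL, 4 of 13 were higher and 5 lower, beside 27.3% and 30.2% of all tested genes. Trf, which encodes transferrin, was at 1.05 ± 0.219 (log2, SE). Its means were 0.79 FPKM in control, 1.52 under RANKL and 1.11 under RANKL + UD. Trf thus passed the expression filter through libraries that received RANKL, where it was higher. The ferrireductase Steap3 was at 0.77 ± 0.099 and Aco1, which encodes iron regulatory protein 1, at 0.66 ± 0.064. Hfe, whose product binds transferrin receptor, was at -2.54 ± 0.131, Slc39a14, an importer of iron not bound to transferrin, at -0.95 ± 0.058, and Fbxl5, which directs the breakdown of iron regulatory protein 2, at -0.76 ± 0.066. With UD relative to RANKL, 2 of 13 were higher and 2 lower, beside 18.6% and 20.2% of all tested genes. Hfe was at 1.01 ± 0.142 relative to RANKL, with means of 7.00 FPKM in control, 1.13 under RANKL and 2.42 under RANKL + UD. Cp, the copper ferroxidase ceruloplasmin, was at 0.82 ± 0.096, with means of 1.66, 1.75 and 3.28 FPKM in the same order. Trf at -0.53 ± 0.209 and Slc39a14 at -0.23 ± 0.060 were lower, and these calls were lost under 6 and 3 of 9 alternatives. Ireb2, the gene of iron regulatory protein 2, named here after its values were seen, was not called, with means of 30.2, 28.98 and 32.1 FPKM.

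Iron-sulfur cluster genes had 10 of 24 higher and 1 lower with RANKL, where 27.3% and 30.2% of all tested genes were called, and their median log2 fold change was 0.18, beside -0.03 for all tested genes. The largest rises were Iba57 at 1.17 ± 0.168 (log2, SE), the ferredoxin reductase Fdxr at 0.69 ± 0.141 and Ciapin1 at 0.64 ± 0.071. Iba57 had means of 0.73 FPKM in control, 1.56 under RANKL and 1.57 under RANKL + UD. It thus passed the expression filter through libraries that received RANKL, where it was higher. Mms19 was at -0.21 ± 0.069, a call lost in limma on quantile-normalized values (adjusted p = 0.247). With UD relative to RANKL 1 was higher and 3 lower, beside 18.6% and 20.2% of all tested genes, and 20 were not called. Nfs1, the cysteine desulfurase, was at 0.21 ± 0.082, Nfu1 at -0.36 ± 0.094, the mitochondrial chaperone Hspa9 at -0.27 ± 0.043 and Ciapin1 at -0.22 ± 0.069. Of these, only the Nfu1 call was kept under all 9 alternatives.

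Regulators of these genes had 1 of 9 higher and 5 lower with RANKL, beside 27.3% and 30.2% of all tested genes. Nfe2l2, which encodes NRF2, an activator of Hmox1 and ferritin genes, was at -0.67 ± 0.056 (log2, SE), Zfp36, whose product destabilizes mRNAs that include Tfrc, was at -1.86 ± 0.064, Zfp36l1 at -0.75 ± 0.072 and the small MAF gene Maff at 0.66 ± 0.145. With UD relative to RANKL, 4 of 9 were lower and 5 were not called, where 20.2% of all tested genes were lower. Zfp36 was at -0.71 ± 0.071, Maff at -0.62 ± 0.144 and Bach1, the heme-sensing repressor of Hmox1, at -0.24 ± 0.057, each called under all 9 alternatives. Nfe2l2 was not called between RANKL + UD and RANKL (-0.06 ± 0.056), with means of 67.5 FPKM in control, 39.9 under RANKL and 40.7 under RANKL + UD.

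**Figure D5:**
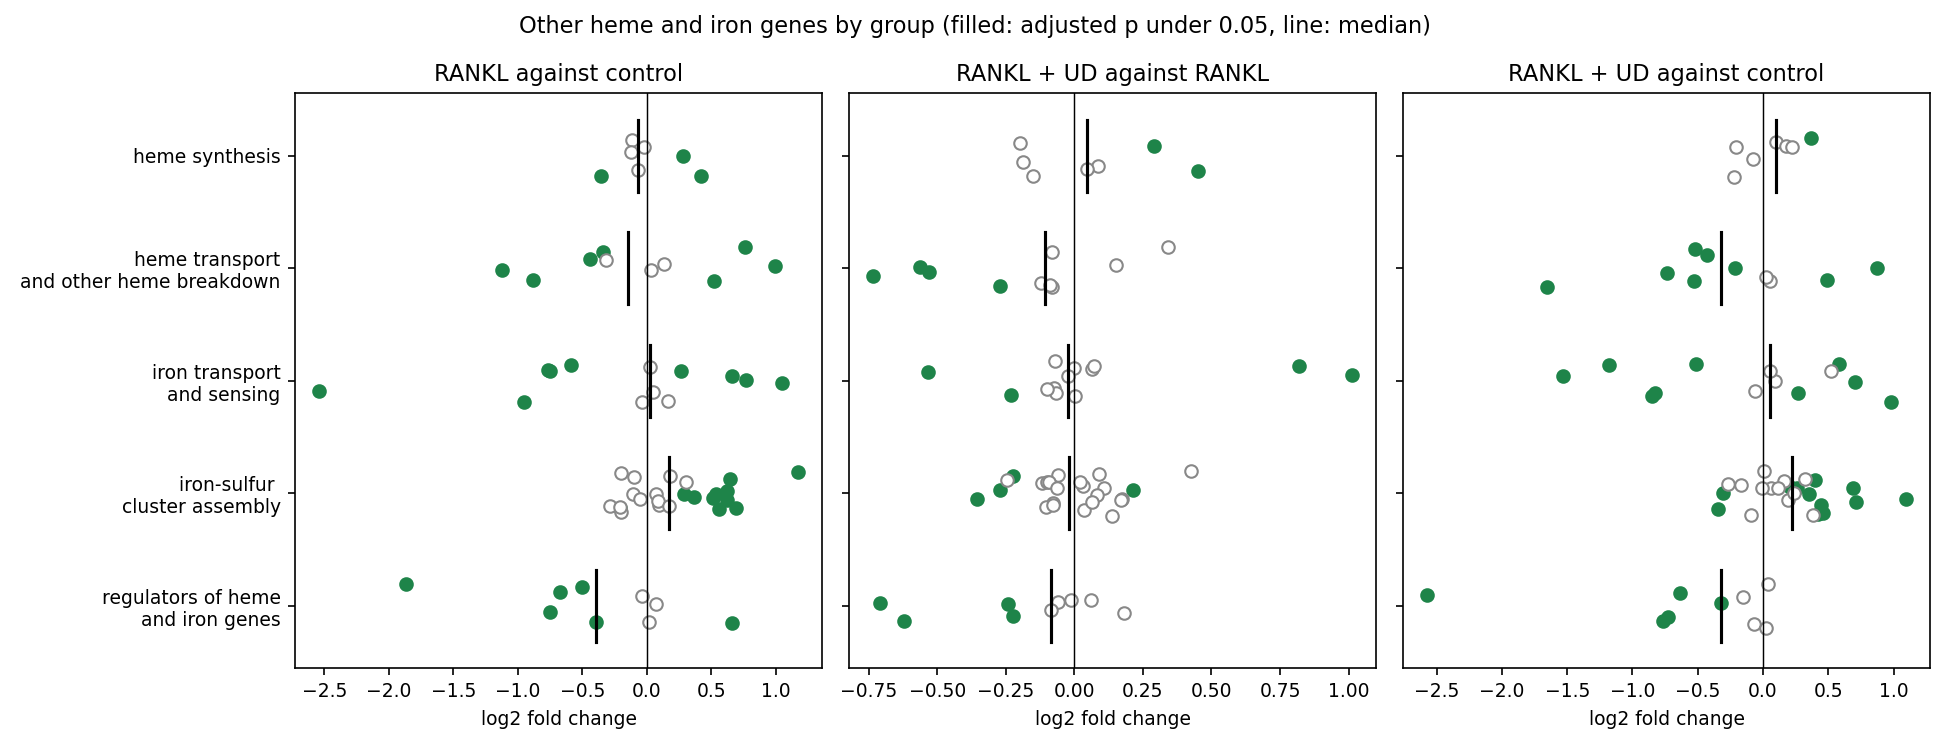
Log2 fold change (horizontal axis, with a different range in each panel) of the 63 tested genes of 5 heme and iron lists in the 3 comparisons, filled where the edgeR adjusted p is under 0.05, with list medians as lines and random vertical offsets. Hfe lies at -2.54 with RANKL and at 1.01 between RANKL + UD and RANKL. In the latter comparison 4 of the 9 tested regulators are called lower, beside 20.2% of all tested genes.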

How the data were processed

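Poly(A) RNA from 9 RAW264.7 libraries was sequenced, and 1 table of all genes was deposited. It holds raw counts, deposited as whole numbers of reads for each gene. It also holds FPKM, for which the authors divided the counts by exonic length and library total, and a recomputation came within 0.006 of the deposited value for 100% of genes. The aligner and counting tool are not given in the sources used here, and the study's methods name DESeq2. The labels name mm10, but the table's coordinates differ from GRCm38 (GENCODE M21) for 10 of 10 members, so coordinates were taken from GENCODE M21 by Ensembl identifier. Library preparation kept strand, and whether counting used it is not stated. Genes that overlap members on the other strand had at most 93 counts (Gm10252, at Ftl1), 8 (Gm5475, at Slc11a2) and 4 (at Fth1).

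Counts were tested in edgeR 4.0.16 (R 4.3.3) with TMM scaling, all 9 libraries in 1 quasi-likelihood fit and Benjamini-Hochberg adjustment over the 11995 genes that reached an FPKM of 1 in 3 or more libraries. The SE was derived from the F statistic. Alternatives were RLE, total counts, upper-quartile factors, DESeq2 1.42.0, limma 3.58.1 on log2(FPKM + 1), log2(FPKM + 0.1) and quantile-normalized values, only the 6 libraries compared, a replicate block, no filter, and each library left out. The code was tested on simulated data. All 10 members were described, and in each of 5 lists up to 3 of the largest rises and falls were named, with the 3 nearest genes by Pearson correlation. A result that this rule would name is not reported here. Members and lists were chosen with earlier results of these data known. Replicate libraries differed by more than counting error (chi-square over degrees of freedom 2.98 to 9.54).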

Additional observations from a re-analysis of the deposited data

How the results depend on the processing

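Of 27 log2 fold changes of members, each under 16 alternatives, 17 kept their call and direction throughout and 10 did not. Against RANKL, members lower with UD went from 7 to 8 under RLE and in DESeq2. They went to 3 with total counts and with limma at both pseudocounts, and to 4 with quantile normalization. Members higher went from 0 to 1 with total counts and with limma at both pseudocounts. Leaving out 1 library gave 0 to 1 higher and, beyond 1.5-fold, 1 to 2 lower. Members lower by over 1.5-fold in RANKL against control went from 1 to 0 under RLE, DESeq2, the 6-library fit and no filter, to 2 with quantile normalization, and spanned 0 to 1 without single libraries. Quantile normalization changed the sign of Ftl1. It was called lower at -0.19 for RANKL against control, and was not called at 0.0084 for RANKL + UD against RANKL (limma adjusted p = 0.92). Counts of other heme and iron genes under these settings were added after the data were seen: between RANKL + UD and RANKL, 5 higher and 13 lower became 13 and 8 with total counts and 12 and 7 with limma at both pseudocounts. For these changes the cause was not tested. The heavy to light ferritin ratio kept its direction under every alternative, but these alternatives were hardly a test of it. Library scaling cancels in the ratio, and with groups that did not overlap, leaving out 1 library could not reverse it. Pairing of libraries by replicate number was weak at most, with same-number r from -0.02 to 0.10 and different-number r from -0.10 to 0.05. The pairs of replicate 1 (r of 0.086, 0.098 and 0.063) lay above every different-number pair. With a replicate block no member changed its call and 7 members were lower with UD. Depth limits Slc40a1, at 13 to 57 counts.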
